A study of Mus musculus with 8 samples.

Results

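The MYC, MAX and MXD network is a set of basic helix-loop-helix leucine zipper proteins that compete for one small partner, MAX. MYC proteins pair with MAX, bind the E-box CACGTG and activate genes of growth and biosynthesis. The MXD proteins and MNT pair with the same partner at the same kind of site and recruit the SIN3/HDAC corepressor, and MXD levels are commonly linked to exit from the cell cycle and differentiation. MLX is the hub of a parallel branch, in which it pairs with MLXIP or MLXIPL to drive genes that respond to glucose. In liver, Myc is known as an early gene of regeneration.

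The 10 genes described here are Myc, Mycn, Mycl, Max, Mxd1, Mxi1, Mxd3, Mxd4, Mnt and Mlx, out of 34945 named genes in the table. They were chosen by symbol as a gene family with the siCasp8 against Scr values already known, and the large fall of Mxd3 in that comparison was part of the choice. Their values in that comparison are therefore given as a description. Where a member is said to lie past the threshold used for all genes, this places it among them and is not a test of the network. Mxd3 had the 16th lowest log2 fold change of 14154 tested genes, at -1.71, next to Slc17a1 (-1.77) on one side and Clca3b (-1.70) on the other.

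The libraries hold poly-A RNA of AML12 cells, a line of mouse hepatocytes from a liver with a human TGF-alpha transgene, and the genotype label is Casp8 knockdown for siCasp8 and WT for Scr. The siCasp8 group is 4 cultures transfected with siRNAs against Casp8, the gene of the initiator caspase of death receptors. The Scr group is 4 cultures that received a scrambled siRNA. Both groups received 40 nM siRNA with a lipid reagent and were collected after 48 hours, so the lipid and an siRNA are common to both, and no untransfected cells are compared here. Every library comes from the same line. The series' design text describes 4 biological replicates, and p-values measure the spread between these cultures of one line.

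Casp8 was at 37.3% of the Scr level, with 1374, 1431, 1627 and 1490 in the siCasp8 libraries against 3936, 3995, 4134 and 3825 in the Scr libraries. All values are the authors' normalized signal per gene. Depth, estimated from the spacing of low values, was 50.3 to 56.8 M reads per siCasp8 library and 30.7 to 51.8 M per Scr library. Of 9 hepatocyte markers, all were tested, 4 rose and 2 fell. The share that rose was 44.4%, beside 19.4% of all tested genes. The share that fell was 22.2%, close to the 20.8% of all tested genes. Alb, Ttr and Trf had log2 fold changes of 5.38, 1.46 and 0.74, against -0.31 for Krt8 and -0.25 for Apob (limma adjusted p of at most 0.00277 for each), and Apob did not pass after upper quartile rescaling. Apoa1 was low at 18.9 in siCasp8 and 14.6 in Scr. Summed levels ranged from 2189 to 2347 in siCasp8 and from 2826 to 3029 in Scr for 6 macrophage and leukocyte markers, with Adgre1 and Clec4f at 0 in every library and Csf1r and Cd14 lower in siCasp8. They ranged from 211 to 335 in siCasp8 and from 220 to 561 in Scr for 6 endothelial markers, with Cdh5 at 0, and from 99.2 to 176 in siCasp8 and from 122 to 178 in Scr for 7 stellate markers. Of these, Des rose to 45.3 ± 22.6 in siCasp8, against 12.1 ± 8.24 in Scr (SD, n = 4 each, log2 fold change 1.94, limma adjusted p = 0.00518), while Col1a1 fell to 77.9 ± 23.9 in siCasp8, against 116.8 ± 22.2 in Scr (-0.62, limma adjusted p = 0.046), with overlapping groups. Neither passed with the depth covariate. For 6 cholangiocyte markers summed levels ranged from 118267 to 125969 in siCasp8 and from 102415 to 111592 in Scr. Spp1 and Sox9 were higher (0.21 and 0.15) and Krt19 and Krt7 lower (-0.15 each). The keratins did not pass after upper quartile rescaling, under quantile normalization or with the depth covariate. Spp1 did not pass with the depth covariate. Epcam was at or near 0. In bulk RNA of a single line, fewer cells with a transcript and less of it per cell cannot be told apart. The part of these markers in the results below was not tested.

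Promoter sequences were matched for 9 of the 10 genes, from RefSeq on GRCm38.p6. Myc has no entry in that table. The E-box is shown because it is the word that MYC, MXD and MLX dimers read, and 4 of the 9 genes carry it in the window from 250 bases before to 50 bases after an annotated start. Of all 32851 promoter windows of that length, 7.15% held it. That is a share of windows and not of genes, and the 9 genes have 11 windows. The word reads the same on both strands. The 4 windows of 30 bases around it are printed 5′ to 3′ on the strand of the gene with the E-box in capitals.
Mxd4 (chr5:34187912-34187941, minus strand): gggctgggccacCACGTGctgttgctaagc
Mnt (chr11:74830789-74830818, plus strand): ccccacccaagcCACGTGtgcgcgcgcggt
Mlx (chr11:101087238-101087267, plus strand): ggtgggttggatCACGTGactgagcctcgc
Max (chr12:76962234-76962263, minus strand): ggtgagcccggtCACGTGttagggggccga

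The word began 219 bases before the start in Mxd4, 123 in Mnt, 40 in Mlx and 3 in Max. A match is a description of the letters and not a binding site. The 4 genes did not share one direction in the comparison below: Mxd4 was lower in siCasp8, and the groups overlapped for Mnt, Mlx and Max.

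The 250 bases before the start are shown for Mxd3 and Mycn, because these genes had the largest differences, in opposite directions. Besides the E-box, 2 words of the cell cycle were searched on both strands. The E2F site was taken as TTTGGCGC, TTTGCCGC, TTTCGCGC or TTTCCCGC, which 2.26% of all windows held, and the cell cycle homology region (CHR) as TTTGAA, which 17.9% held. Capitals mark these words on either strand.
Mycn (chr12:12941837-12942086, minus strand): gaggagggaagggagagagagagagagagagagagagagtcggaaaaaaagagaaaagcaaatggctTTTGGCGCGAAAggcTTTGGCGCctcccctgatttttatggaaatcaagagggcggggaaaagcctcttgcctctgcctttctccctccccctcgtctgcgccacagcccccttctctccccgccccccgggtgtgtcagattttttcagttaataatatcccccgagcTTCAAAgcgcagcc
Mxd3 (chr13:55329732-55329981, minus strand): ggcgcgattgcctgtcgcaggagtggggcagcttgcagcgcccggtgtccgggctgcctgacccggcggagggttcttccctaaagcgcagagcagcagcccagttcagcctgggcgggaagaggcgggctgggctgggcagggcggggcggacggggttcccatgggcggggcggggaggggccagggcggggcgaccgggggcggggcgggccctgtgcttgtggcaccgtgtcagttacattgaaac

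The Mycn window held the E2F words at 183, 179 and 168 bases before the start, of which the first 2 overlap, and the CHR word once, as TTCAAA, at 14 bases before it. None of these words was found in the Mxd3 window. The other 7 genes with a promoter held neither the E2F nor the CHR word.

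Across the 10 genes, Mxd3 was far lower after Casp8 silencing, Myc and Mxd4 were moderately lower, Mycn was higher, and Max, Mxd1, Mxi1, Mnt and Mlx lay within 0.12 of 0 on the log2 scale. Mycl was barely detected. Of the 9 genes with a mean of at least 10 over the 8 libraries, 3 lay past the threshold as lower and 1 as higher (limma adjusted p under 0.05 over all tested genes). Over all 14154 tested genes, 40.2% passed, 20.8% as lower and 19.4% as higher. The groups did not overlap for 5 of the 9 genes, and for 37.5% of all tested genes. Since the choice of the genes used this comparison, nothing is read from these counts. The median log2 fold change was -0.06 over the 9 genes and 0.00 over all tested genes.

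**Figure D1:**
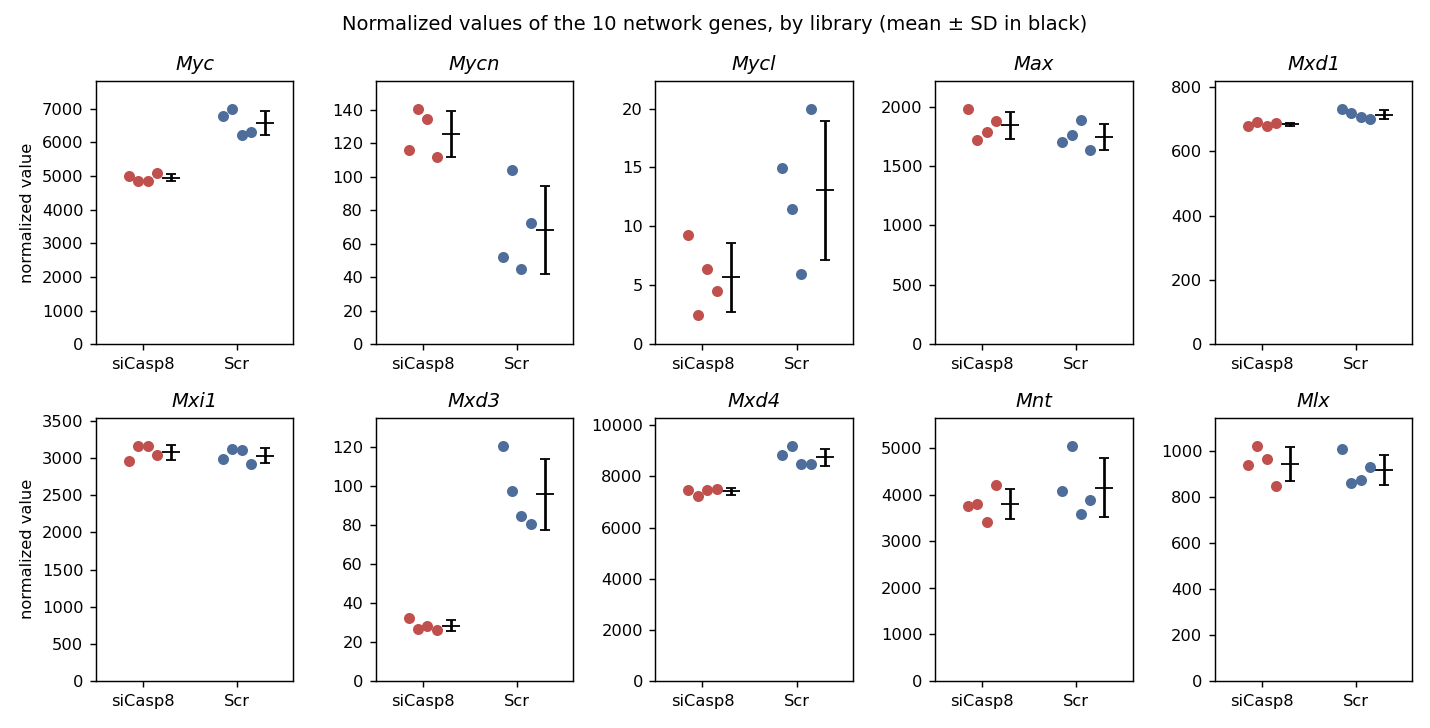
Normalized values (vertical axes, starting at 0, each with its own scale) of the 10 network genes in the 4 siCasp8 and 4 Scr libraries, with the mean ± SD in black. Mxd3 lay between 26.4 and 32.3 in siCasp8 and between 80.5 and 121 in Scr, while the groups overlap for Max, Mxi1, Mnt, Mlx and Mycl.

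Of the genes that activate with MAX, Myc was the most abundant member per kilobase. The gene occupies chr15:61985391-61990374 (GRCm38, plus strand). It measured 5006, 4855, 4869 and 5090 in the siCasp8 libraries against 6776, 6989, 6223 and 6323 in the Scr libraries. Every siCasp8 library was below every Scr library, and the siCasp8 values were also closer together. The means were 4955 ± 113 in siCasp8 and 6578 ± 365 in Scr (SD, n = 4 each), which leaves 75.3% of the Scr level. Its log2 fold change was -0.41 (SE 0.042).

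Mycn (chr12:12936093-12941914, minus strand), the paralog best known from embryonic and neural tissue, went the other way. It measured 116, 140, 134 and 112 in the siCasp8 libraries and 51.8, 104, 44.9 and 72.5 in the Scr libraries. The groups did not overlap, but Scr replicate 2 came close to the lowest siCasp8 library. The means were 126 ± 13.7 in siCasp8 and 68.3 ± 26.5 in Scr (SD, n = 4 each), 1.84 times the Scr level, and the log2 fold change was 0.94 (SE 0.23). It ranged from 0.77 without Scr replicate 3 to 1.16 without Scr replicate 2. With estimated depth as a covariate it was 1.02 with a wider SE of 0.37, and lay short of the threshold.

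Mycl (chr4:122995652-123002485, plus strand), the third MYC paralog, was not tested, as its mean was under 10. Its values were 9.28, 2.44, 6.41 and 4.52 in the siCasp8 libraries and 14.9, 11.5, 5.93 and 19.9 in the Scr libraries, which stand for 3.12 to 10.6 and 5.01 to 22.9 estimated reads. The groups overlapped. Per kilobase of its longest annotated transcript, Mycn made up 2.17% ± 0.278 of the summed level of the 3 MYC genes in siCasp8 and 0.89% ± 0.308 in Scr (SD, n = 4 each). The sum itself was lower, at 2168 ± 43.5 per kilobase in siCasp8 and 2843 ± 163 in Scr.

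Max (chr12:76937269-76962201, minus strand), the common partner, showed little difference. It measured 1979, 1719, 1790 and 1879 in the siCasp8 libraries and 1701, 1761, 1885 and 1632 in the Scr libraries, and the groups overlapped. The difference was 0.08 on the log2 scale (SE 0.057, 95% interval -0.05 to 0.20). After upper quartile rescaling, which moved the median of all tested genes to 0.10, it was 0.18 and lay past the threshold.

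Among the MXD repressors, Mxd3, the member linked to S phase and to proliferating progenitors, had the largest difference of the 10 genes. It measured 32.3, 26.6, 28.3 and 26.4 in the siCasp8 libraries against 121, 97.5, 84.7 and 80.5 in the Scr libraries. The highest siCasp8 library was below the lowest Scr library by a wide margin. The means were 28.4 ± 2.76 in siCasp8 and 95.9 ± 18.1 in Scr (SD, n = 4 each), which leaves 29.6% of the Scr level, with a log2 fold change of -1.71 (SE 0.177). These values stand for 33.1 to 36.8 estimated reads per siCasp8 library and 66.1 to 92.5 per Scr library. The log2 fold change was -1.37 with estimated depth as a covariate and lay between -1.79 and -1.59 when each library was left out in turn.

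The exons of Mxd3 (chr13:55325168-55329823, minus strand) share 105 bases with those of Prelid1 on the other strand. Prelid1, which encodes a mitochondrial lipid transfer protein, was at 7660 ± 251 in siCasp8 and 8038 ± 663 in Scr (SD, n = 4 each, log2 fold change -0.07). No source used here states whether the counting was stranded.

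Mxd4 (chr5:34173883-34187720, minus strand), the repressor with the highest level, measured 7472, 7229, 7448 and 7508 in the siCasp8 libraries against 8818, 9191, 8480 and 8500 in the Scr libraries. The groups did not overlap. The means were 7414 ± 126 in siCasp8 and 8747 ± 334 in Scr (SD, n = 4 each), 84.8% of the Scr level, and the log2 fold change was -0.24 (SE 0.035). After upper quartile rescaling it was -0.14.

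Mxd1 (chr6:86647042-86669161, minus strand), the founding MXD gene, often induced on differentiation, measured 680, 690, 678 and 687 in the siCasp8 libraries and 731, 720, 708 and 700 in the Scr libraries. The groups did not overlap, but the gap was small, and the log2 fold change of -0.06 (SE 0.051) lay short of the threshold. It was 0.04 after upper quartile rescaling. Mxi1 (chr19:53310518-53375810, plus strand), also called Mxd2, measured 2959, 3162, 3165 and 3037 in siCasp8 and 2988, 3129, 3108 and 2917 in Scr. The groups overlapped, with a log2 fold change of 0.02 (SE 0.040), which was 0.12 and past the threshold after upper quartile rescaling.

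Per kilobase, the 4 MXD genes together came to 2377 ± 20.8 in siCasp8 and 2701 ± 90.6 in Scr (SD, n = 4 each). Mxd4 held 67.4% ± 0.843 of that sum in siCasp8 and 70.0% ± 0.596 in Scr, while Mxd3 held 0.685% ± 0.0679 in siCasp8 and 2.03% ± 0.352 in Scr. The gene with the largest fold change was therefore the smallest part of the MXD transcripts in both groups.

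Mnt (chr11:74830920-74845725, plus strand), the widely expressed antagonist of MYC, measured 3766, 3806, 3424 and 4210 in the siCasp8 libraries and 4092, 5054, 3580 and 3886 in the Scr libraries. Scr replicate 2 was the highest library, and the groups overlapped. The difference on the log2 scale was -0.12 (SE 0.091, 95% interval -0.32 to 0.08), and -0.02 without Scr replicate 2. Mlx (chr11:101087277-101092207, plus strand) measured 936, 1021, 965 and 848 in siCasp8 and 1006, 860, 871 and 930 in Scr, which overlapped and differed by 0.04 on the log2 scale (SE 0.070, 95% interval -0.11 to 0.19). Exons of Mlx share 385 bases with Psmc3ip on the other strand. Psmc3ip, a gene of homologous recombination, fell to 194 ± 8.87 in siCasp8, against 281 ± 30.4 in Scr (SD, n = 4 each, log2 fold change -0.53, limma adjusted p = 0.000812).

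**Figure D2:**
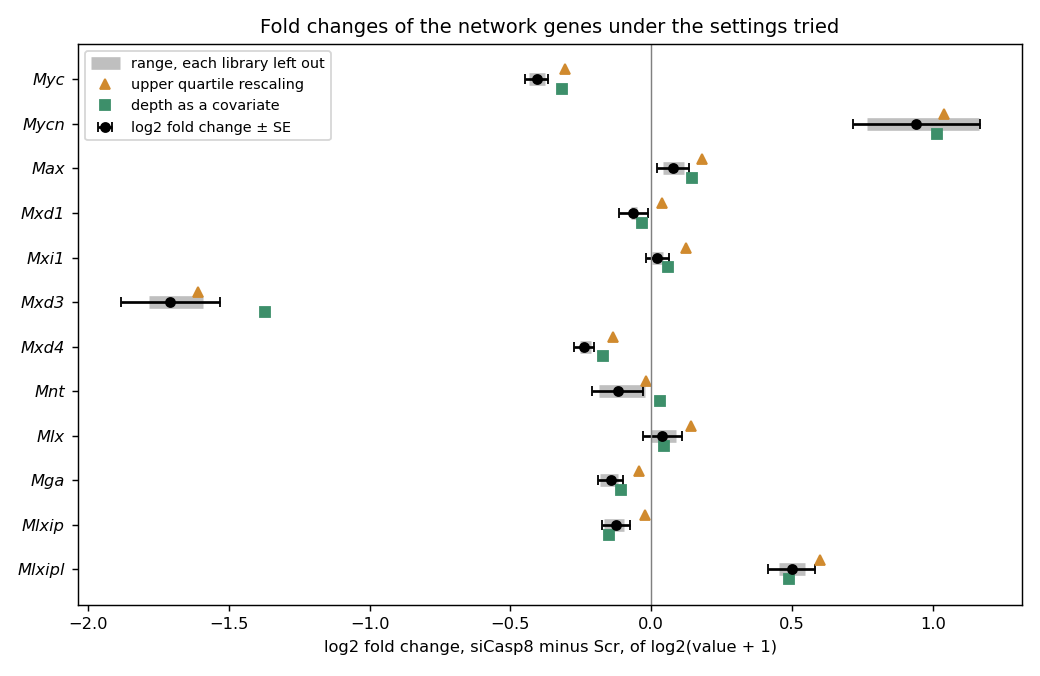
Log2 fold changes (siCasp8 minus Scr, horizontal axis) of the 9 tested network genes and 3 further partners, with SE, the range when each library was left out, and the values after upper quartile rescaling and with depth as a covariate. Mxd3 (-1.71), Myc (-0.41) and Mxd4 (-0.24) stayed below 0 and Mycn (0.94) above 0 at every setting drawn, while Mxd1 and Mnt each changed sign at 1 of them.

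Levels of different genes were set side by side per kilobase of the longest annotated transcript (GENCODE M21). In siCasp8 the order from high to low was Myc, Mxd4, Max, Mnt, Mxi1, Mlx, Mxd1, Mycn, Mxd3 and Mycl, and in Scr it was Myc, Mxd4, Mnt, Max, Mxi1, Mlx, Mxd1, Mxd3, Mycn and Mycl. Mnt and Max were the 1 pair of neighbours whose ranges over the 4 libraries overlapped, in both groups. Mycn and Mxd3 changed places: Mycn was at 47.0 ± 5.12 and Mxd3 at 16.3 ± 1.58 per kilobase in siCasp8, while Mycn was at 25.5 ± 9.90 and Mxd3 at 55.0 ± 10.4 in Scr (SD, n = 4 each). With the merged length of all exons in place of the longest transcript, Mlx stood above Mxi1 in both groups and Mnt above Max in siCasp8. Both lengths only approximate the transcripts that were present.

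**Figure D3:**
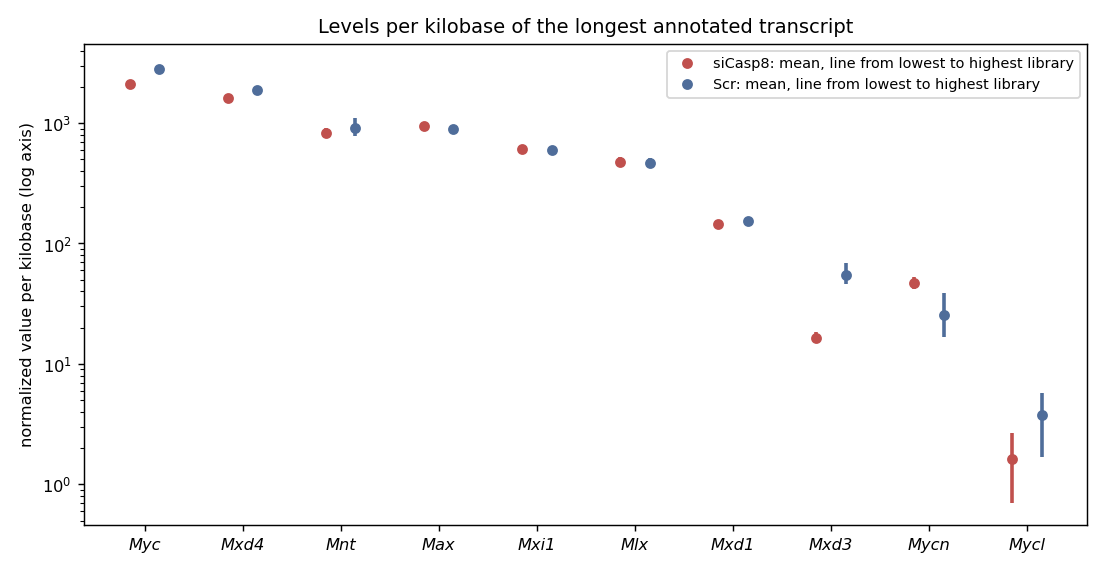
Normalized value per kilobase of the longest annotated transcript (log axis) of the 10 network genes in siCasp8 and Scr, with the mean as a point and a line from the lowest to the highest of 4 libraries. Levels run from 2119 in siCasp8 and 2813 in Scr for Myc to 1.62 in siCasp8 and 3.73 in Scr for Mycl, and the order of Mxd3 and Mycn differs between the groups.

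Mlxipl, Mlxip and Mga also encode dimerising proteins of the network. Mlxipl, the glucose-responsive partner of MLX known from liver as ChREBP, measured 408, 432, 456 and 488 in the siCasp8 libraries against 286, 347, 316 and 313 in the Scr libraries. The groups did not overlap, and the gene rose by 0.50 (SE 0.084) on the log2 scale (limma adjusted p = 0.000483). Mlxip, the other glucose-responsive partner, was at 2677 ± 110 in siCasp8 and 2921 ± 180 in Scr (SD, n = 4 each, log2 fold change -0.12, limma adjusted p = 0.0678). It passed without Scr replicate 2 (-0.17, limma adjusted p = 0.0114) and with the replicate number as a block (adjusted p = 0.0266). Mga, which pairs with MAX and joins a Polycomb-type repressor complex, was at 6914 ± 432 in siCasp8 and 7626 ± 204 in Scr (SD, n = 4 each). It fell by 0.14 on the log2 scale (limma adjusted p = 0.0218), and it did not pass after upper quartile rescaling (adjusted p = 0.499), under quantile normalization (0.139), with the depth covariate (0.332), without Scr replicate 2 (0.0546), without siCasp8 replicate 2 (0.0759) or without siCasp8 replicate 4 (0.069).

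Lists of genes known to be activated by MYC held more genes that fell than rose. Of 30 genes of the nucleolus and ribosome assembly, all were tested, 17 fell, none rose and 13 did not pass, with a median log2 fold change of -0.16 beside 0.00 for all genes. The share that fell was 56.7%, beside 20.8% of all tested genes. The listed genes are abundant, with Scr means from 920 for Nop16 to 49353 for Ncl. With a filter at a mean of 50, 2935 of 11951 genes fell and the list count was again 17. The share among genes of like level was not taken. The nucleolar phosphoprotein gene Nolc1 fell to 7372 ± 186 in siCasp8, against 9709 ± 331 in Scr (SD, n = 4 each, -0.40, limma adjusted p = 2.9e-06). Nop56 and Nop58, core proteins of the box C/D particles that guide methylation of ribosomal RNA, fell by 0.33 and 0.26 (limma adjusted p = 1.05e-05 and 0.000284). Npm1, an abundant nucleolar chaperone gene, had a log2 fold change of 0.03 (limma adjusted p = 0.612). Upper quartile rescaling left 5 that fell and gave 1 that rose, and the depth covariate left 5 that fell. The count that fell was 15 under quantile normalization, 18 with the replicate block and 14 to 17 when each library was left out. All 14154 tested genes gave 1665 that fell after upper quartile rescaling and 1493 with the depth covariate. The 56.7% did not hold in those 2 settings. Nolc1, Nop56 and Nop58 were lower under both.

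Of 27 MYC targets in metabolism and growth, all were tested, 17 fell, 2 rose and 8 did not pass, with a median of -0.29. The share that fell was 63.0%, beside 20.8% of all tested genes. The translation helicase gene Eif4a1 fell to 29625 ± 907 in siCasp8, against 39871 ± 1067 in Scr (SD, n = 4 each, -0.43, limma adjusted p = 1.33e-06). The transferrin receptor gene Tfrc fell by 0.51 and the glycolytic enzyme gene Eno1 by 0.37 (limma adjusted p = 1.51e-06 and 6.16e-06). Paics, a purine synthesis gene, rose by 0.16 (limma adjusted p = 0.00196). It did not pass with the depth covariate, under which 12 of the list were lower and none higher. The 2 counts were 15 lower and 5 higher with upper quartile rescaling. Among all 14154 tested genes, 1665 were lower and 4471 higher with that rescaling, and 1493 were lower with the depth covariate.

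Of 9 genes commonly given as repressed by MYC, 3 rose and 1 fell, with a median of 0.12. The share that rose was 33.3%, beside 19.4% of all tested genes. In either direction 44.4% of this short list passed, close to the 40.2% of all tested genes, so the count is not a result about the list. Cebpa, which encodes a factor of hepatocyte differentiation, rose to 673 ± 17.7 in siCasp8, against 509 ± 32.2 in Scr (SD, n = 4 each, 0.40, limma adjusted p = 0.000271). The stress gene Ndrg1 and the CDK inhibitor gene Cdkn2b rose by 0.20 and 0.24 (limma adjusted p = 0.00142 and 0.00684). Ndrg2 fell to 41.3 ± 14.5 in siCasp8, against 69.6 ± 7.24 in Scr (-0.79, limma adjusted p = 0.0137), with overlapping groups. With the depth covariate Ndrg1 and Ndrg2 did not pass. With upper quartile rescaling 5 rose and 1 fell, and without Scr replicate 2 the count that fell was 2. Cdkn1a, the best known of these genes, had a log2 fold change of -0.04 (limma adjusted p = 0.47).

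**Figure D4:**
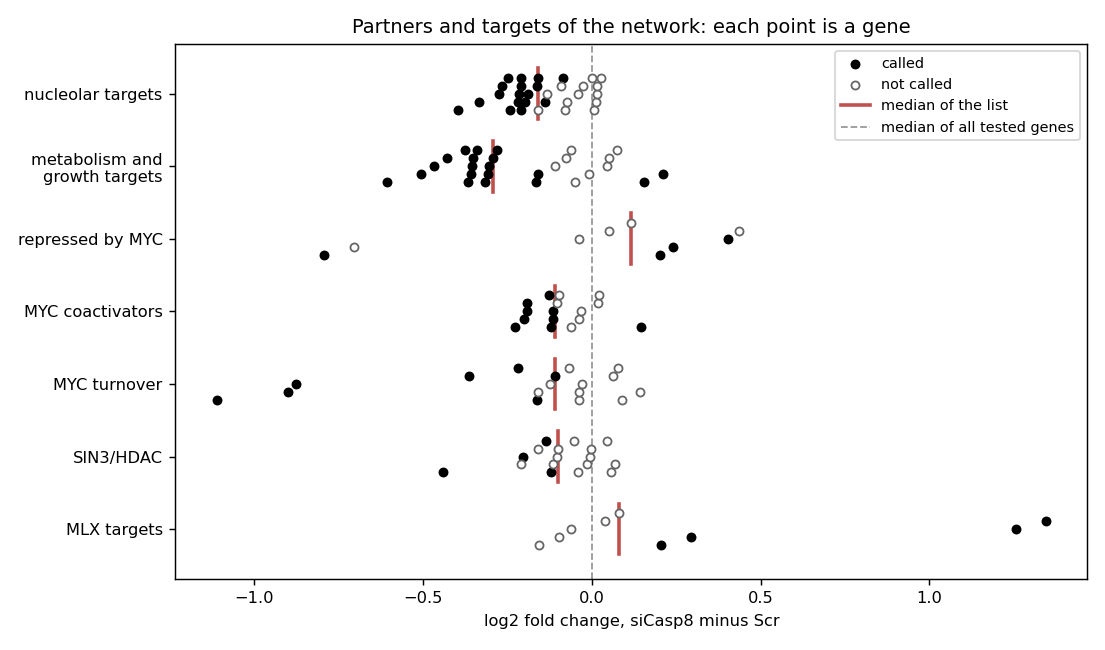
Log2 fold changes (siCasp8 minus Scr, horizontal axis) of the tested genes in 7 lists of partners and targets, filled where the gene passed the threshold, with the median of each list in red and that of all tested genes dashed. The medians were -0.16 for nucleolar targets, -0.29 for metabolism and growth targets and 0.12 for the 9 genes repressed by MYC. They were -0.11 for coactivators, -0.11 for turnover, -0.10 for SIN3/HDAC and 0.08 for MLX targets.

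Coactivators and chromatin partners of MYC differed by small amounts. Of 16 genes, 8 fell, 1 rose and 7 did not pass, with a median of -0.11. The share that fell was 50%, beside 20.8% of all tested genes. Actl6a, an actin-like subunit of several chromatin complexes, fell by 0.23 (limma adjusted p = 0.00158). Ccnt1 and Cdk9, the cyclin and kinase of the elongation factor P-TEFb, fell by 0.20 and 0.12 (limma adjusted p = 0.00372 and 0.00806). The acetyltransferase gene Kat5 rose by 0.14 (limma adjusted p = 0.0091). Of these 4, Ccnt1 passed with the depth covariate and Kat5 and Actl6a passed after upper quartile rescaling. The count that fell was 1 after upper quartile rescaling, 3 under quantile normalization and 1 with the depth covariate. Over all 14154 tested genes, 1665 fell after upper quartile rescaling, 2655 under quantile normalization and 1493 with the depth covariate. In none of these settings did the list exceed the share of all genes that fell. The list count was 4 without Scr replicate 1, 2 or 4, 5 without siCasp8 replicate 1 or 2, and 3 without siCasp8 replicate 3.

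Of 17 genes that act on MYC protein stability, 7 fell, none rose and 10 did not pass, with a median of -0.11. The share that fell was 41.2%, beside 20.8% of all tested genes. The share that passed in either direction was close to the 40.2% of all tested genes, so the count is not a result about the list. The 3 with the smallest p were Cip2a, Plk1 and Aurka. Cip2a, which encodes an inhibitor of the phosphatase PP2A, fell to 836 ± 48.9 in siCasp8, against 1561 ± 96.3 in Scr (SD, n = 4 each, -0.90, limma adjusted p = 3.23e-07). Plk1 and Aurka, genes of mitotic kinases, fell by 1.11 and 0.88 (limma adjusted p = 5.09e-07 and 5.58e-06), and both are also cell division genes. The ubiquitin ligase genes Fbxw7 and Huwe1 had log2 fold changes of -0.04 and 0.08 and did not pass. With upper quartile rescaling 4 fell and 4 rose, under quantile normalization 2 rose, with the depth covariate 3 were lower, and without Scr replicate 3 or 4 there was 1 that rose.

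Of 17 genes of the SIN3/HDAC corepressor, 4 fell, none rose and 13 did not pass, with a median of -0.10. The share that fell, 23.5%, was close to the 20.8% of all tested genes, so the count is not a result about the corepressor. Brms1l, a subunit of the complex, fell to 608 ± 14.3 in siCasp8, against 826 ± 42.8 in Scr (SD, n = 4 each, -0.44, limma adjusted p = 6.68e-05). Sinhcaf and Sin3b fell by 0.20 and 0.13 (limma adjusted p = 0.00463 and 0.0331), and neither passed after upper quartile rescaling or with the depth covariate. Hdac2, a deacetylase gene, was the other one that fell (-0.12, limma adjusted p = 0.0336). The scaffold gene Sin3a had a log2 fold change of -0.04 (limma adjusted p = 0.731). The count that fell was 1 after upper quartile rescaling, with 2 higher, 2 under quantile normalization, 1 with the depth covariate and 2 without Scr replicate 4 or siCasp8 replicate 1.

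Some targets of MLX with MLXIP or MLXIPL rose and others did not pass. Of 10 genes, 9 were tested, 4 rose, none fell and 5 did not pass, with a median of 0.08. The share that rose was 44.4%, beside 19.4% of all tested genes. The share that passed in either direction was close to the 40.2% of all tested genes, so the count is not a result about the list. Txnip, which encodes a glucose-induced inhibitor of glucose uptake, rose to 7954 ± 733 in siCasp8, against 3358 ± 580 in Scr (SD, n = 4 each, log2 fold change 1.26, limma adjusted p = 2.85e-06). Khk, the fructokinase gene, and Klf10, a zinc finger factor gene, rose by 0.29 and 0.21 (limma adjusted p = 0.0016 and 0.00316). Acacb, the gene of the mitochondrial acetyl-CoA carboxylase, was at 50.8 ± 29.9 in siCasp8 and 18.4 ± 8.45 in Scr (SD, n = 4 each), with overlapping groups (1.34, limma adjusted p = 0.0249). With the depth covariate 1 rose, which was Txnip, beside 1308 of all 14154 tested genes, and Khk, Klf10 and Acacb did not pass. Without Scr replicate 3 there was 1 that fell. Arrdc4, a paralog of Txnip, had a log2 fold change of 0.08 (limma adjusted p = 0.856), and Pklr, the liver pyruvate kinase gene, 0.04 (limma adjusted p = 0.706).

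All 10 proliferation genes listed beside Mxd3 fell, by 0.53 to 1.19 on the log2 scale, beside 20.8% of all tested genes that fell. The list was chosen with earlier results of these data known. The siCasp8 values of Mxd3 stand beside a lower level of these cell cycle transcripts in the same libraries. Mki67, which had the highest normalized value of them without division by length, fell to 3528 ± 191 in siCasp8, against 8089 ± 931 in Scr (SD, n = 4 each, -1.19). Among genes of S phase and mitosis, the log2 fold change was -0.89 for Cdk1, -1.15 for Ccna2 and -1.04 for Mcm5 (limma adjusted p of at most 7.3e-08 for each). With the depth covariate 9 of the 10 were lower, beside 1493 of all 14154 tested genes. In Scr, replicate 1 had the highest value of Mxd3 and also of 8 of these 10 genes. The part of these transcripts in the values of Mxd3 was not tested.

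**Figure D5:**
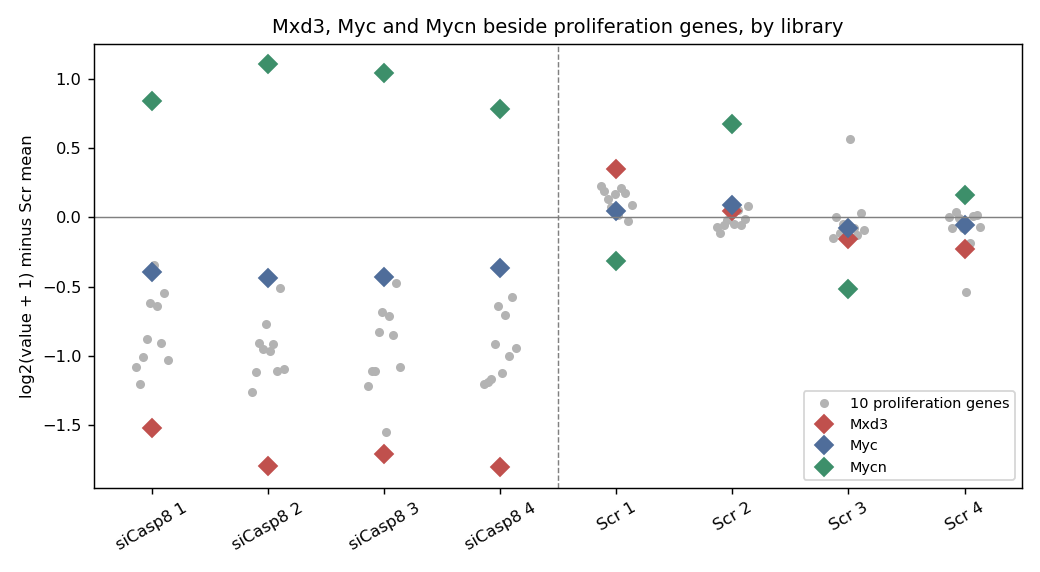
Log2(value + 1) minus the gene's own Scr mean (vertical axis) in each of the 8 libraries, for Mxd3, Myc, Mycn and 10 proliferation genes in grey. Mxd3 lies below the proliferation genes in all 4 siCasp8 libraries, Myc lies above all of them except E2f2 in siCasp8 replicate 1, and Mycn is above 0 in all 4.

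Likeness of profiles was measured over the 8 libraries as the root mean square distance between log2(value + 1) of 2 genes, each set to its own Scr mean, among 11341 genes with a mean of at least 50. The 5 nearest to Mxd3 were Pax8, a factor of kidney and thyroid development (distance 0.14), Fxyd2, a subunit of the sodium pump (0.17), the chemokine gene Ppbp (0.204), Clca3b (0.207) and the organic anion transporter gene Slco4a1 (0.21). They differed from Scr by -1.90 to -1.58, and none is on the proliferation list, whose nearest gene was Mki67 at 0.381. The 5 nearest to Myc were Anxa5, a phospholipid-binding protein gene (0.0231), the growth factor gene Nrg1 (0.0245), the tubulin gene Tuba1b (0.0296), Tomm6, a subunit of the mitochondrial import pore (0.0302), and Nolc1 (0.0314), which is on the list of nucleolar targets above. These distances follow mainly from the difference between the groups and are a description of 8 libraries.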

How the data were processed

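Poly-A RNA-seq of 4 siCasp8 and 4 Scr cultures was analysed from 1 table of gene-level values. The authors deposited a normalized signal per gene symbol, named as kallisto estimates normalized with DESeq2 per the file name. Tools listed in the submitters' processing notes are kallisto 0.44.0, bcl2fastq 2.19, DESeq2 and sleuth, with the builds GRCm38 and GRCh38 and no roles. No source used here states how transcripts were summed. One line without a symbol (0.0481% to 0.0631% of each total) was left out.

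Totals were 44.1 to 45.6 M per library and carry no depth. The spacing of low values gave 30.7 to 56.8 M reads, and 66.3% to 74.9% of values up to 20.5 reads lay within 0.1 of a whole read, so whole reads were not recovered and no count model was run.

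limma 3.58.1 (R 4.3.3) tested siCasp8 minus Scr on log2(value + 1), two-sided, with a variance trend, over 14154 genes with a mean of at least 10, with Benjamini-Hochberg adjustment. The pseudocount makes fold changes of low genes too small. The procedure was tested on simulated data. The members and gene lists were chosen with earlier results of these data known, and lists are described by counts and medians. Shares over all tested genes take in genes of every level and were not matched to the levels of the listed genes. Genes were named by a rule: all members, 3 further partners, the 3 called genes of smallest adjusted p per direction in each list, and the 5 nearest profiles of Mxd3 and Myc. Other list genes (Npm1, Cdkn1a, Fbxw7, Huwe1, Sin3a, Arrdc4, Pklr, Acacb, Hdac2, Csf1r, Cd14, Des, Col1a1) and overlapping genes were chosen after their values were seen. One gene that the rule gave is not reported here. Promoters are RefSeq's (GRCm38.p6), and gene positions GENCODE M21 (GRCm38).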

Additional observations from a re-analysis of the deposited data

How the results depend on the processing

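Of 144 values for the 9 tested network genes under 16 alternatives, 139 kept their direction and their side of the threshold, which is no support for them, as the genes were chosen with this comparison known. The 5 others were Max (0.18) and Mxi1 (0.12), past the threshold after upper quartile rescaling, Mxd1 (0.04 after that rescaling) and Mnt (0.03 with the depth covariate), whose sign turned short of it, and Mycn (1.02, short of it with the depth covariate). The count of network genes past the threshold as higher was 3 after upper quartile rescaling and 0 with the depth covariate. Over all genes, 5689 were called, 2739 as higher and 2950 as lower. Upper quartile rescaling made this 4471 as higher and 1665 as lower. With the depth covariate 2801 genes were called, 1308 as higher and 1493 as lower. Estimated depth largely went with group, at 30.7 to 51.8 M in Scr and 50.3 to 56.8 M in siCasp8. The covariate therefore also widened the SE, for Casp8 from 0.0525 to 0.0849. A gene that lay short of the threshold with it is not thereby shown to follow depth. Quantile normalization gave 2967 as higher and 2655 as lower.

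After upper quartile rescaling the list counts were 1 higher and 5 lower for nucleolar targets, 5 higher for metabolism and growth, 5 higher for genes repressed by MYC, 1 lower for coactivators, 4 higher and 4 lower for turnover, and 2 higher and 1 lower for SIN3/HDAC. Under quantile normalization they were 4 higher for metabolism and growth, 3 lower for coactivators, 2 higher for turnover and 2 lower for SIN3/HDAC. With the depth covariate they were 5 lower for nucleolar targets, 0 higher for metabolism and growth, 0 lower for genes repressed by MYC, 0 higher and 1 lower for coactivators, 3 lower for turnover, 1 lower for SIN3/HDAC and 1 higher for MLX targets. With no filter 5 coactivators were lower. Leaving out each library gave 3 to 10 lower coactivators, 2 to 4 lower SIN3/HDAC genes, 1 to 2 lower genes repressed by MYC, 0 to 1 higher turnover genes and 0 to 1 lower MLX targets. The cause of these changes was not tested.

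Same-numbered libraries of the 2 groups had correlated deviations of 0.0442 to 0.169, not all above 0.1, so the numbers were not taken to pair cultures, although each siCasp8 library was closest to the Scr library of its number. A replicate block gave 6020 calls and left the 9 network genes on the same side of the threshold. Depth limits Mycl and Mxd3, with 3.12 to 22.9 and 33.1 to 92.5 estimated reads per library.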
